A study of Homo sapiens with 8 samples.

Results

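The genes AGO1, AGO2, AGO3, AGO4, TNRC6A, TNRC6B, TNRC6C, DICER1, DROSHA and DGCR8 encode the core of the human microRNA machinery, and they were followed here as a group of 10 chosen by name. Their poly(A) site usage was read from 2 deposited tables, in which each entry is a pair of poly(A) sites of 1 gene. All 10 genes had at least 1 pair in the sgHNRNPC table, with 91 of its 31148 pairs. Only 8 of them had a pair in the MDA-LM2 table, with 59 of its 27016 pairs, and AGO4 and DGCR8 were not listed there.

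The tables come from mRNA 3′-end sequencing of 8 samples of the triple-negative breast cancer cell line MDA-MB-231, with 2 replicates in each of 4 groups. MDA-LM2, a derivative that is highly metastatic to the lungs, was compared with the poorly metastatic parental line MDA-MB-231. MDA-MB-231 cells with a CRISPR interference knockdown of HNRNPC (sgHNRNPC), a nuclear RNA-binding protein, were compared with cells that carried a non-targeting guide (sgControl). All cells grew in the same base medium. By the study's methods, cells that carried a guide also expressed dCas9-KRAB and were selected with puromycin or blasticidin. The labels do not describe the replicates, and the study's methods call the replicates of its sequencing experiments biological, in a list that does not name 3′-end sequencing. The tables hold no expression levels, so neither the knockdown of HNRNPC nor the cell type could be checked in them.

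In the nucleus, DROSHA with its partner DGCR8 cuts the primary microRNA transcript, and DICER1 then trims the exported hairpin to a short duplex. An Argonaute protein (AGO1 to AGO4) keeps one strand and binds target mRNAs with it, and a TNRC6 protein (TNRC6A to TNRC6C, the GW182 family) links Argonaute to the deadenylases that shorten the target's tail. Most mRNAs can end at several poly(A) sites, and a distal site adds 3′ UTR that may itself hold microRNA target sites.

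The measure in the tables is logAPAR, the log change in the ratio of proximal to distal site usage. A negative value means relatively more usage of the distal site in MDA-LM2 or sgHNRNPC cells. The tables hold no value of a single sample, so the standard error (SE) of each logAPAR was taken from the value and its raw P, and a pair was called at raw P under 0.01. The P values of pairs are those of APAlog, the authors' logistic regression on the reads. For the members, the pairs of a gene reduced to 1 value per site, so each site is given against the most distal site of its gene, and the value of any other pair is the difference of 2 such values. Genomic sites are named by their distance in nucleotides (nt) upstream of the last genomic site of the same gene. The tables name no genome build for their positions, and 26 of the 28 genomic sites of these genes lie outside the gene's GRCh38 span. The positions were therefore not read as GRCh38 positions.

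Of the 17 annotated transcript ends among the members' sites, 13 had the same identifier and version in GENCODE 44 and could be placed on GRCh38. AGO4 (chr1:35808016-35857890), AGO1 (chr1:35869808-35930532) and AGO3 (chr1:35930718-36072500) lie in this order on the plus strand of chromosome 1, and the end of AGO1 is 186 nt from the start of AGO3. DROSHA lies on the minus strand at chr5:31400494-31532196, DICER1 on the minus strand at chr14:95086228-95158010, TNRC6A on the plus strand at chr16:24610209-24827632 and TNRC6C on the plus strand at chr17:77958703-78108822. DGCR8 (chr22:20080221-20111877) and TNRC6B (chr22:40044817-40335808) both lie on the plus strand of chromosome 22.

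The last 30 bases of 8 placed ends are shown because they separate ends that carry a poly(A) signal from ends that do not, and results on DROSHA and TNRC6A rest on both kinds. They are from the GENCODE 44 transcripts on GRCh38, written 5′ to 3′ on the transcript's strand, with a signal (AATAAA or ATTAAA) in capitals.
AGO1 ENST00000373204.6: ggcgctATTAAAgagttttaaacatggaaa
DICER1 ENST00000527414.5: cagAATAAAacatttaacatatgtataaaa
DROSHA ENST00000511367.6: attAATAAAggcaaaacttctttgtaaaac
DROSHA ENST00000505601.5: tcatcacatgcacatgcggaagaaaggtat
DROSHA ENST00000512302.1: gaaaactactactccagtgaccccatggat
TNRC6A ENST00000395799.8: ttatgtggaAATAAAgtgtttgatttaaaa
TNRC6A ENST00000561726.1: gttctcggcctcagatttccaaagagtctt
TNRC6B ENST00000454349.7: agactAATAAAtgtgtttggctgctaagca

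One of these motifs was present in the last 40 nt, on the transcript's strand, of 8 of the 13 placed member ends (61.5%), beside 47.7% of the 11678 transcript ends of both tables that could be placed. The DROSHA end ENST00000512302.1, at position 31514994, is marked in the annotation as an mRNA whose end was not found, and it lies 114500 nt upstream of the end of the gene. ENST00000505601.5 of DROSHA, at position 31449277, belongs to a transcript with no defined coding sequence, and ENST00000561726.1 of TNRC6A is a retained-intron transcript that ends 23342 nt before the gene does. No motif was found in the last 40 nt of these 3. The protein-coding ends ENST00000351989.8 of DGCR8 and ENST00000636222.1 of TNRC6C also had none, at 1764 and 1192 nt past their stop codons. The other DROSHA end, ENST00000511367.6, lies 935 nt past its stop codon, and ENST00000395799.8 of TNRC6A lies 2411 nt past its own.

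The errors of the members were wide in both comparisons. In the MDA-LM2 table the median SE of a member pair was 0.68, at which a logAPAR of 1.76 would be needed for a call, and 7 of the 59 pairs (11.9%) had an SE at which a logAPAR of 1 would be called, beside 16.9% of all pairs. In the sgHNRNPC table the median SE was 1.38, and 4 of 91 pairs (4.40%) met this limit, beside 9.60% of all pairs. The squared SE of a pair was the sum of 2 site variances within 1% in 99.8% of MDA-LM2 genes and 99.5% of sgHNRNPC genes with enough sites for the check. The variance of a site therefore gave the smallest number of normalized reads, summed over the 4 samples of a comparison, that a site with that error can have. This number is a lower limit and covers counting error only, and it reads logAPAR as a natural log, the scale of a logistic regression coefficient, which the tables do not state.

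By this measure the best supported sites were the genomic site of DROSHA, with at least 204 reads in the MDA-LM2 comparison and at least 206 in the sgHNRNPC comparison, and the AGO2 site 10370 nt upstream, with at least 170 and at least 118. Fewer than 5 reads would suffice for 3 of the 28 member sites in the MDA-LM2 table, and for 15 of the 39 in the sgHNRNPC table. The thinnest were 2 AGO3 sites and the retained-intron end of TNRC6A in the sgHNRNPC comparison, at 1.15 reads or less. Support could not be split between the sites of genes listed with a single pair.

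**Figure D1:**
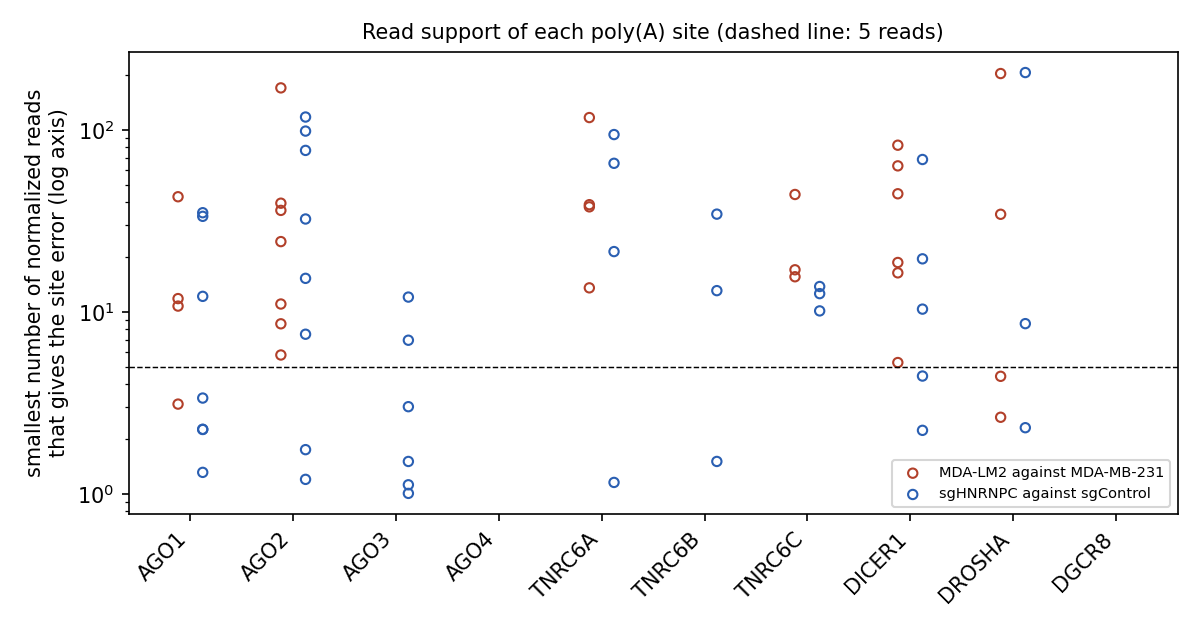
Smallest number of normalized reads (log axis) that gives the error of each poly(A) site, by gene and comparison; each circle is 1 site and the dashed line marks 5 reads. DROSHA and AGO2 hold the best supported sites, while 15 of the 39 sgHNRNPC sites fall under the line; genes with 1 pair have no point.

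In MDA-LM2 cells 1 of the 59 member pairs was called, a pair of AGO2, and 0.803% of all pairs of the table were called. At raw P under 0.05 there were 6 member pairs, 5 of AGO2 and 1 of DICER1, beside 4.05% of all pairs. The lowest deposited adjusted P among the members was 0.974, so none passed at an adjusted P of 0.05, which 0.0296% of all pairs did. Of the 59 pairs, 27 (45.8%) had a negative logAPAR, compared with 51.0% of all pairs, and the median was 0.07, compared with -0.01 over all pairs. Without DICER1 the share was 54.5% of 44 pairs, on the other side of that of all pairs.

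In sgHNRNPC cells 0 of the 91 member pairs were called by APAlog, and 0 had a raw P under 0.05. The shares of all pairs at these limits were 0.462% and 1.30%. The lowest raw P was 0.121, for a pair of AGO2, and the deposited adjusted P was 1 for every member pair, where 0.0899% of all pairs were under 0.05. Of the 91 pairs, 59 (64.8%) had a negative logAPAR, compared with 55.2% of all pairs, and the median was -0.29, compared with -0.08 over all pairs. Pairs of 1 gene share sites, so these shares do not rest on independent values.

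**Figure D2:**
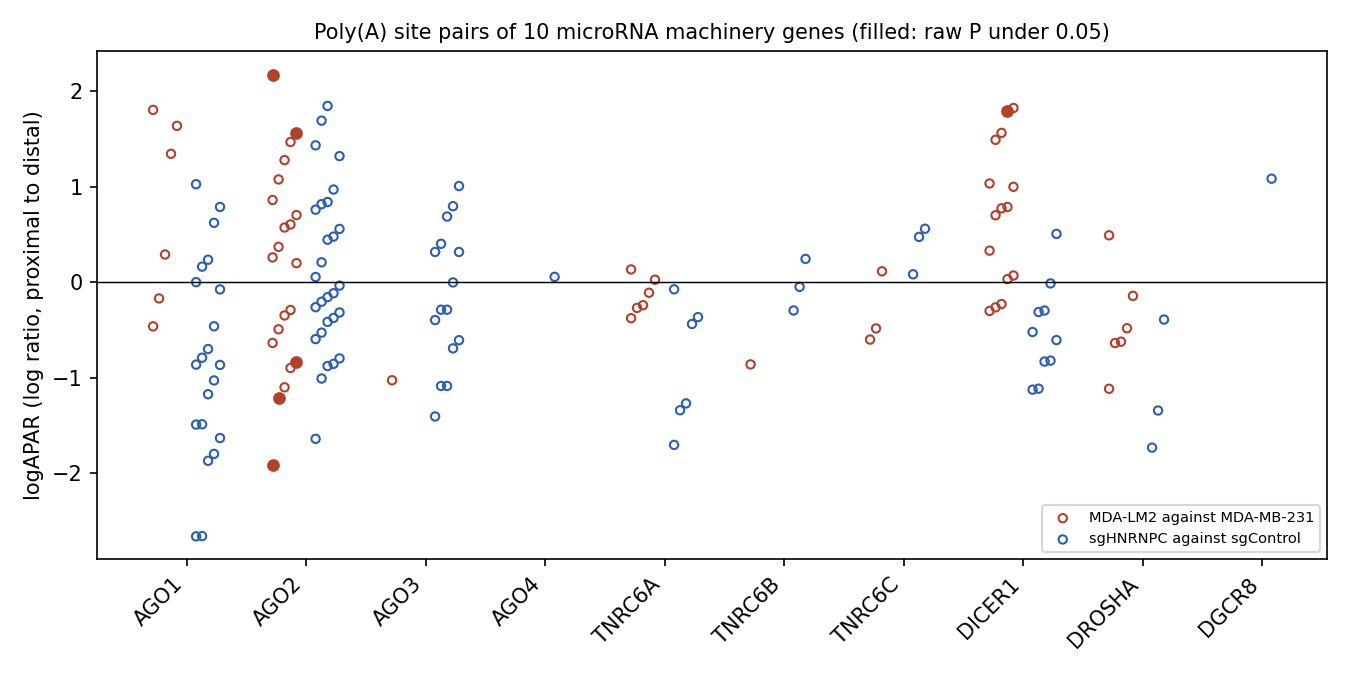
logAPAR of each pair of poly(A) sites of the 10 genes, with 1 circle per pair; red circles compare MDA-LM2 with MDA-MB-231 and blue circles sgHNRNPC with sgControl, and filled circles have a raw P under 0.05. The 6 filled circles are all red, with 5 in AGO2 and 1 in DICER1.

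AGO2, the Argonaute that can itself cut a fully matched target, had the called pair. Its gene lies on the minus strand at chr8:140520156-140635633, and the annotated end in the tables, ENST00000220592.10, is the end of the gene, 11888 nt past the stop codon in the genome. In MDA-LM2 cells the pair of this end and the site 1013 nt upstream had a logAPAR of -1.21 ± 0.46, toward the annotated end. The SE is the one implied by the raw P, not a spread between the 2 replicates per group. In the authors' APAlog fit the raw P was 0.00868 and the adjusted P 0.974. The call was lost, leaving 0 called member pairs, when z-scores were rescaled to the spread of the table, a division by 1.03. Relative to the last genomic site the logAPAR of the end was -1.91 ± 0.76 (raw P = 0.0117, the authors' fit), and relative to the best supported site, 10370 nt upstream, it was -0.84 ± 0.37 (raw P = 0.0227, the authors' fit).

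The remaining AGO2 sites in MDA-LM2 cells did not all lie on the same side. Against the annotated end the logAPAR was -0.63 ± 0.69 for the site 10785 nt upstream, which is the outermost pair, -0.35 ± 0.52 for the site 2061 nt upstream and 0.26 ± 0.90 for the site 5608 nt upstream. The last genomic site had the lowest value, within its error of that of the neighbouring site 1013 nt upstream, whose logAPAR against it was 0.71 ± 0.75. The sites 5608 and 2061 nt upstream had values against it of 2.18 ± 1.08 and 1.57 ± 0.79 with raw P of 0.0429 and 0.0481. Of the 6 genomic sites, 5 thus had a negative value against the annotated end.

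Each AGO2 site was also compared with the weighted mean of the gene's other sites. This and the other Wald tests over sites or between comparisons take the implied errors as known, and an exact test over samples could not be made without values of single samples, so their P are approximate. The annotated end was higher by 0.85 ± 0.36 on the log scale in MDA-LM2 cells with a raw P of 0.0169 and an adjusted P of 0.888 by a Wald test over all sites, in which 4.94% of sites had a raw P under 0.05. The last genomic site had a value of -1.20 ± 0.69 and the site 1013 nt upstream one of -0.53 ± 0.34, with raw P of 0.082 and 0.118. A single test of whether the 7 sites changed by the same amount gave a raw P of 0.0448 and an adjusted P of 0.964 over 6539 genes, of which 4.63% had a raw P under 0.05. The support was at least 36.1 reads for the annotated end, 39.5 for the site 1013 nt upstream and 8.59 for the last genomic site.

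In sgHNRNPC cells no pair of AGO2 sites had a raw P under 0.05. Against the annotated end the logAPAR was -0.31 ± 0.29 for the site 10370 nt upstream, -0.37 ± 0.30 for the site 2061 nt upstream and -0.11 ± 0.42 for the site 1013 nt upstream. It was 0.48 ± 0.56 for the last genomic site, 0.45 ± 0.76 for the site 10785 nt upstream and -0.53 ± 1.53 for the site 5608 nt upstream. A further site 7270 nt upstream, listed only in this comparison, had a value of 1.32 ± 1.84. The lowest raw P was that of the site 2061 nt upstream against the last genomic site, with a logAPAR of -0.85 ± 0.55 (raw P = 0.121, the authors' fit), and the test over the 8 sites gave a raw P of 0.632, beside 2.13% of genes with a raw P under 0.05. No AGO2 site against the others had a raw P under 0.182, beside 2.52% of all sites under 0.05. The 95% interval of the pair called in MDA-LM2 cells ran from -2.11 to -0.31 there, while its SE in sgHNRNPC cells was 0.42, so a shift as large as -0.93 lay inside the sgHNRNPC interval.

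**Figure D3:**
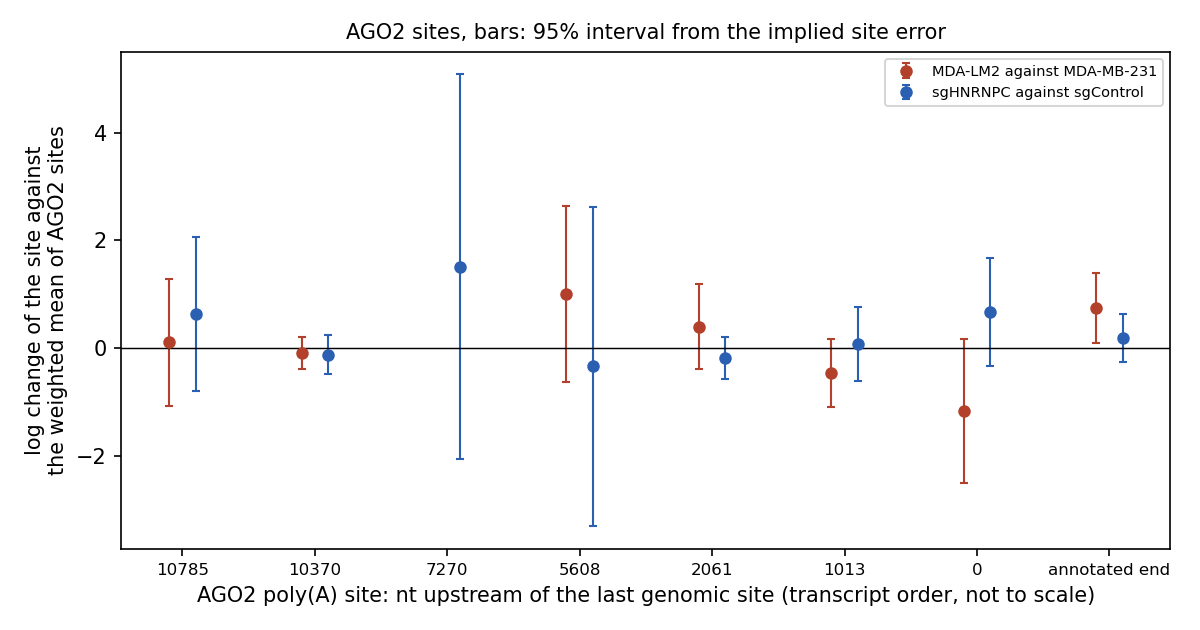
Log change of each AGO2 poly(A) site against the weighted mean of all AGO2 sites, in transcript order from left to right; points are site values, bars are 95% intervals from the implied site errors, and colours are the 2 comparisons. In MDA-LM2 cells the annotated end, at 0.75, is the only 1 of 7 sites whose interval excludes 0, the last genomic site is at -1.17 with an interval that includes 0, and in sgHNRNPC cells every interval includes 0.

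AGO1, like the other Argonautes, binds its targets through the microRNA it holds. In MDA-LM2 cells its 3 genomic sites, 6555 nt, 5199 nt and 0 nt upstream, had values of 1.64 ± 1.17, 1.35 ± 1.27 and 1.81 ± 1.29 against the annotated end ENST00000373204.6, all positive. Raw P was lowest for the last genomic site against that end, at 0.160. In sgHNRNPC cells the same 3 sites had values of -1.49 ± 1.37, -0.79 ± 1.45 and -1.03 ± 1.37. The sites 8646, 7330 and 5707 nt upstream, listed only there, had values of -2.66 ± 2.20, -0.86 ± 1.72 and 0.00 ± 1.88. The first of these gave the lowest raw P of AGO1 in sgHNRNPC cells, 0.226, in its pair with the site 5707 nt upstream (-2.66 ± 2.20). The annotated end had a support of at least 3.11 reads in MDA-LM2 and 2.26 in sgHNRNPC, so these signs rest on a thin site. Among the 3 shared genomic sites alone, the MDA-LM2 pair values ran from -0.46 to 0.29. The same pairs had values of -0.70, -0.46 and 0.24 in sgHNRNPC cells.

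AGO3 was listed with 1 pair in MDA-LM2 cells, the site 15572 nt upstream against the last genomic site, at -1.02 ± 1.06 (raw P = 0.332, the authors' fit). The same pair had a logAPAR of -0.29 ± 1.29 in sgHNRNPC cells. There the sites 14537, 9137, 8661 and 1113 nt upstream had values of 0.40 ± 2.08, -0.29 ± 1.73, -0.60 ± 0.95 and 0.80 ± 1.97 against the last genomic site. Raw P of AGO3 in sgHNRNPC cells was lowest, at 0.491, for the pair of the sites 8661 and 1113 nt upstream (-1.40 ± 2.04). AGO4 had a single pair, in sgHNRNPC cells, with a logAPAR of 0.06 ± 0.99 for its genomic site against the annotated end ENST00000373210.4.

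The TNRC6 proteins carry the silencing step after Argonaute has bound. In MDA-LM2 cells TNRC6B had a single pair, its genomic site against the end of the gene (ENST00000454349.7, position 40335808), at -0.86 ± 0.49, with a 95% interval from -1.82 to 0.11 and a raw P of 0.0811. This was the lowest raw P of an outermost pair among the members in either comparison. In sgHNRNPC cells the same pair had a value of -0.29 ± 0.65. The end ENST00000402203.5, 12448 nt before the gene's end, was listed only there, with -0.05 ± 1.72 against the end of the gene.

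TNRC6A was among the better supported members, and its values were small in MDA-LM2 cells. Against ENST00000395799.8 the genomic site 574 nt upstream, with at least 117 reads, had a value of 0.03 ± 0.37, the last genomic site 0.14 ± 0.46 and the retained-intron end -0.24 ± 0.63. Among its pairs the lowest raw P was 0.555, for the retained-intron end against the last genomic site (-0.37 ± 0.63). In sgHNRNPC cells all 6 TNRC6A pairs were negative, with -0.43 ± 0.32 for the site 574 nt upstream (raw P = 0.177, the authors' fit), -0.36 ± 0.50 for the last genomic site and -1.70 ± 1.88 for the retained-intron end, whose support was at least 1.15 reads. The 95% interval of the first of these, from -1.07 to 0.20, was the narrowest for TNRC6A in this comparison.

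TNRC6C had 3 pairs in each comparison, among the ends ENST00000636222.1 and ENST00000588847.5 and 1 genomic site. In MDA-LM2 cells the genomic site was at -0.60 ± 0.59 and ENST00000636222.1 at -0.48 ± 0.70 against ENST00000588847.5. In sgHNRNPC cells the same pairs were at 0.48 ± 0.84 and 0.56 ± 0.78. Raw P was 0.310 or higher in MDA-LM2 cells and 0.471 or higher in sgHNRNPC cells, and all 6 intervals included 0.

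DICER1, which makes the mature microRNA duplex, had the only member pair outside AGO2 with a raw P under 0.05. In MDA-LM2 cells the pair of ENST00000531162.5 and ENST00000527414.5 had a logAPAR of 1.79 ± 0.90 (raw P = 0.0463, the authors' fit), and the 95% interval ran from 0.03 to 3.55. Against the most distal end, ENST00000343455.7, the logAPAR was 1.57 ± 0.91 for ENST00000531162.5, which is the outermost pair, and 0.78 ± 0.55 for ENST00000532458.1. The 3 sites between were at -0.23 ± 0.33 for ENST00000527414.5, at 0.07 ± 0.39 for the genomic site 1246 nt upstream and at -0.26 ± 0.53 for the last genomic site. The 2 ends listed as most proximal thus had the highest values, and 12 of the 15 pairs were positive. ENST00000531162.5, ENST00000532458.1 and ENST00000343455.7 had no entry of the same version in GENCODE 44. Their positions and transcript types are therefore not known here. ENST00000531162.5 had a support of at least 5.26 reads, beside at least 82.3 for ENST00000527414.5, which lies at position 95090321, 4093 nt before the end of the gene. The test over the 6 sites gave a raw P of 0.212.

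In sgHNRNPC cells 9 of the 10 DICER1 pairs were negative. Against ENST00000343455.7 the logAPAR was -1.12 ± 1.41 for ENST00000532458.1, -0.60 ± 0.51 for ENST00000527414.5, -1.11 ± 0.77 for the genomic site 1246 nt upstream and -0.29 ± 1.05 for the last genomic site. Raw P was lowest for the site 1246 nt upstream, at 0.148. ENST00000531162.5, which gave the MDA-LM2 value at raw P under 0.05, was not listed in this comparison.

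DROSHA and DGCR8 form the nuclear Microprocessor. The genomic site of DROSHA held 83.1% of the summed lower limits of the gene's sites in the MDA-LM2 comparison and nearly all of them in the sgHNRNPC comparison. Against ENST00000511367.6 its value was -0.48 ± 1.24 in MDA-LM2 cells. It was -0.39 ± 0.70 after the HNRNPC knockdown. The end marked as not found, ENST00000512302.1, was at -0.62 ± 1.28 and -1.73 ± 1.48, and ENST00000505601.5, listed only in MDA-LM2 cells, was at -1.11 ± 1.56. No DROSHA pair had a raw P under 0.474 in MDA-LM2 cells or under 0.243 after the knockdown. Although the genomic site was the best supported of all member sites, each of its partners but one had a support of 8.61 reads or less. That one, ENST00000512302.1 in MDA-LM2 cells with at least 34.4 reads, had a value of -0.14 ± 0.37 against it. DGCR8 had a single pair, in sgHNRNPC cells, with a logAPAR of 1.09 ± 1.03 for its genomic site against ENST00000351989.8 (raw P = 0.292, the authors' fit).

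The outermost pair compares the first with the last listed site of a gene. In MDA-LM2 cells 6 of 8 members had a negative outermost logAPAR, with AGO1 and DICER1 positive, and 52.3% of all 6541 genes were negative. The median was -0.55, compared with -0.03 over all genes. In sgHNRNPC cells 6 of 10 were negative, near the 57.9% of all 6801 genes, and the median was -0.17, compared with -0.11 over all genes. None of the members' outermost pairs was called, beside 1.02% of all outermost pairs in MDA-LM2 and 0.662% in sgHNRNPC cells, and every interval included 0.

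**Figure D4:**
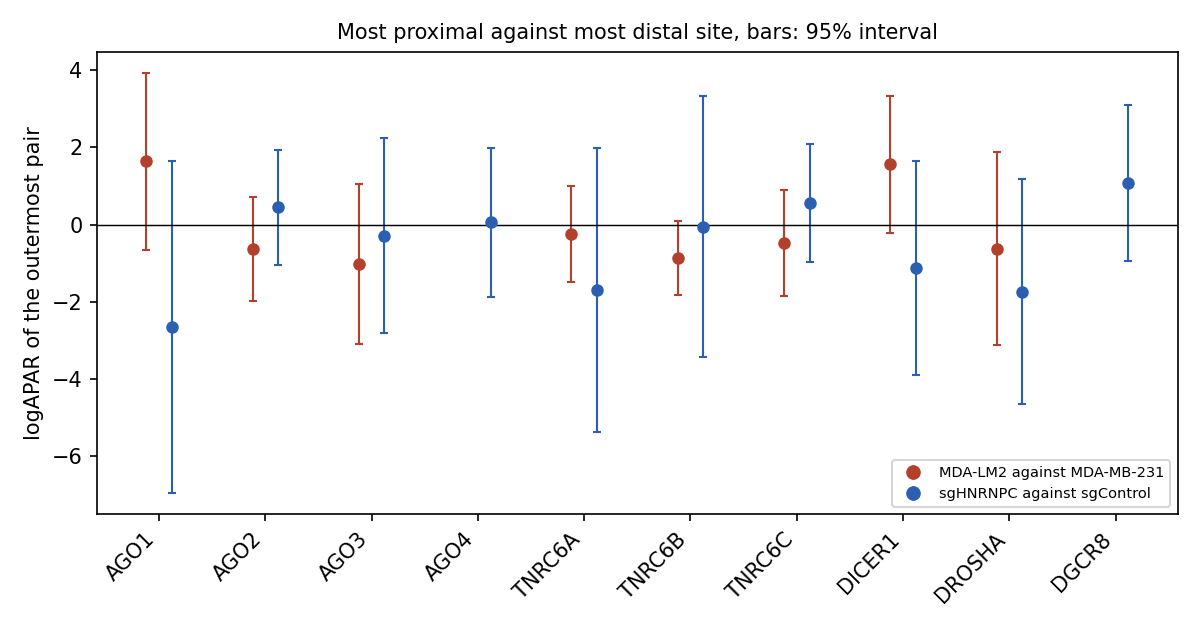
logAPAR of the outermost pair of each gene, with 95% intervals from the implied standard errors; red points compare MDA-LM2 with MDA-MB-231 and blue points sgHNRNPC with sgControl. AGO4 and DGCR8 have no MDA-LM2 value, and all intervals include 0.

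The 2 comparisons share no samples, and 51 member pairs in 8 genes stood in both tables. Of these, 15 were negative in both and 3 positive in both, while 23 were positive in MDA-LM2 and negative in sgHNRNPC cells and 10 the reverse. Over the shared pairs of all genes these counts were 6210, 4692, 5770 and 4619. Of the 23 member pairs, AGO2 gave 10, DICER1 7 and AGO1 4, and pairs of 1 gene share sites. The same sign was seen in 35.3% of member pairs, compared with 51.2% of the 21291 shared pairs that had an error in both tables. Without AGO2 it was 43.3% of 30 member pairs. By gene the same sign was seen in 5 of 21 pairs for AGO2, 1 of 6 for AGO1, 2 of 10 for DICER1, 1 of 3 for TNRC6C, 4 of 6 for TNRC6A and all 3 for DROSHA, and in the single pairs of AGO3 and TNRC6B.

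The difference between the comparisons was tested for each shared pair by a Wald test with the implied errors. It had a raw P under 0.05 in 3 of the 51 member pairs, all of AGO2 and all with the last genomic site as a partner, beside 1.97% of all shared pairs. The lowest was that of the last genomic site against the annotated end, at -1.91 in MDA-LM2 and 0.48 in sgHNRNPC cells, a difference of -2.39 ± 0.94 with a raw P of 0.0111 and an adjusted P of 1.00 over all shared pairs. The sites 2061 and 10370 nt upstream against the last genomic site differed by 2.42 ± 0.97 and 1.87 ± 0.89, with raw P of 0.0122 and 0.0344. None of the 51 passed an adjusted P of 0.05. The called AGO2 pair differed by -1.10 ± 0.62, with a 95% interval from -2.32 to 0.12, which includes 0. A single test over the 7 shared AGO2 sites gave a raw P of 0.111, beside 2.05% of genes with a raw P under 0.05, and for the 5 other genes that could be tested the raw P was 0.294 or higher.

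**Figure D5:**
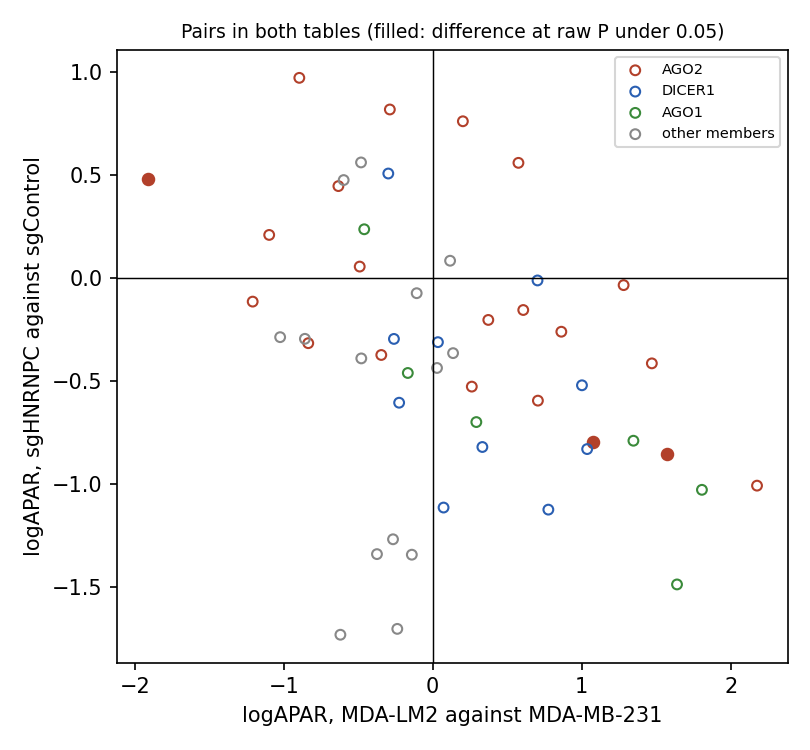
logAPAR of the 51 member pairs found in both tables, in MDA-LM2 on the x axis and in sgHNRNPC on the y axis; each circle is 1 pair and filled circles differ at a raw P under 0.05. The lower right quadrant holds 23 pairs and the lower left 15, beside 5770 and 6210 of the 21291 shared pairs of all genes. The 3 filled circles are pairs of AGO2.

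A wider list of genes that make microRNAs or load Argonaute, act with it or carry out silencing was examined beside the members. In MDA-LM2 cells 45 of its genes were measured and 1 had a called pair, toward the proximal site, beside 2.72% of all genes. In sgHNRNPC cells 44 were measured and 2 were called, both toward the distal site, beside 1.62% of all genes. Over the whole list the called direction was not the more frequent: 60% of outermost pairs were negative in MDA-LM2 cells, beside 52.3% of all genes. In sgHNRNPC cells 43.2% were negative, beside 57.9%. The 2 genes called in sgHNRNPC cells encode the HSP90 chaperones that help load the small RNA. HSP90AB1 had a logAPAR of -0.29 ± 0.03 in sgHNRNPC cells (raw P = 1.98e-16, adjusted P = 3.08e-12, the authors' fit) and HSP90AA1 one of -0.34 ± 0.05 (raw P = 3.94e-10, adjusted P = 3.07e-06, the authors' fit). Both were small in size, and their errors were far below those of the members. Those errors come from a fit to reads that, as described, has no term for spread between the 2 replicates per group. The P values of these 2 genes may therefore take no account of that spread.

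The gene called in MDA-LM2 cells was again HSP90AB1, at 0.40 ± 0.10 (raw P = 0.000129, adjusted P = 0.165, the authors' fit) for another pair of sites than in sgHNRNPC cells. HSP90AA1 was at 0.15 ± 0.06 there, with a raw P of 0.0134, also for another pair of sites than in sgHNRNPC cells. Both HSP90 genes have processed pseudogenes, and whether the counting split reads with them was not tested. DDX5, a helicase of the Microprocessor, was at 0.36 ± 0.15 (raw P = 0.0158, the authors' fit) in MDA-LM2 cells. CNOT3, a subunit of the CCR4-NOT deadenylase, was at 2.54 ± 1.08 (raw P = 0.019, the authors' fit), and GIGYF2, a translational repressor, at 1.57 ± 0.67, with a raw P of 0.0195. TSN, a subunit of the nuclease C3PO, was at 0.67 ± 0.31 in sgHNRNPC cells (raw P = 0.0293, the authors' fit). None of these 4 was called at raw P under 0.01. Each comparison measured 24 silencing effectors, not all of them shared, and 0 were called in either, with 4 in MDA-LM2 and 0 in sgHNRNPC cells at a raw P under 0.05. The shares of all genes with a pair under 0.05 were 11.0% and 4.51%, beside 15.6% and 9.09% of the wider list.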

How the data were processed

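The authors made both tables: QuantSeq reads were assigned by Salmon 0.14.1 to distinct transcript ends (Gencode 33), and APAlog modelled the normalized abundances by multinomial logistic regression. The submitters' processing notes name UMI-tools and hg38, which most genomic positions of the members do not match. For every pair the deposited values are the logAPAR, its unadjusted p-value and its adjusted p-value. No depth or value per sample is given, and the fit, as described, has no term for spread between replicates, so the errors may cover counting error alone. The median absolute z-score over all pairs, scaled so that a standard normal gives 1, was 1.03 in MDA-LM2 and 0.71 in sgHNRNPC cells. In sgHNRNPC cells the values thus spread less than the implied errors. The SE is the size of logAPAR over its z-score, and pairs with a p-value of 1 have none. Site values and variances came from least squares over a gene's pairs, and Wald tests were adjusted by Benjamini-Hochberg over all features. The split of variances and the Wald tests were tested on simulated data. All pairs of the 10 members were kept, and the text names, for each gene and comparison, the pair of lowest P, the outermost pair, every pair with a raw P under 0.05 and, from the wider list, the 6 genes of lowest P in either comparison. Members and lists were chosen with earlier results of these data known, and the tests over sites were added after seeing the data. Python 3.11.15, numpy 2.4.6, pandas 2.3.3 and scipy 1.17.1 were used.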

Additional observations from a re-analysis of the deposited data

How the results depend on the processing

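No paired analysis was possible because neither table gives values for individual samples, and for the same reason no fit left out a replicate. The count of 1 called member pair in MDA-LM2 cells became 6 at raw P under 0.05, and 0 at raw P under 0.001, at adjusted P under 0.05, with outermost pairs only, with z-scores rescaled to the spread of the table, or with 1 test per gene at raw P under 0.01 (and, by construction, 0 without AGO2); with an SE under 1 or a logAPAR size above 0.5 it was 1, as it was with 1 test per gene at raw P under 0.05. The count of 0 in sgHNRNPC cells was 0 under every alternative run. The share of member pairs with a negative logAPAR in MDA-LM2 cells (45.8%) became 75% with outermost pairs or with lowest P pairs, and 62.5% with each gene counted once by its median. Without DICER1 it was 54.5%, above the share of all pairs (51.0%) in place of below it, and without AGO2 47.4%. In sgHNRNPC cells the share (64.8%) became 74.5% over pairs in both tables and 85.7% over the 7 pairs of 2 transcript ends. Centring on the table median gave 45.8% and 58.2%. Requiring at least 5 reads at both sites, added after seeing the data, left 49 and 30 pairs and gave 42.9% and 63.3%. The 0 member pairs that differed between the comparisons became 3 at raw P under 0.05 and stayed 0 under the other alternatives. From the wider list, 1 gene called in MDA-LM2 cells became 7 at raw P under 0.05 (15.6% of its genes, beside 11.0% of all genes) and 0 with outermost pairs, and 2 in sgHNRNPC cells became 4 (9.09%, beside 4.51%) and 1. The share depends on which pairs of a gene are counted. At the median SE, a logAPAR under 1.76 in MDA-LM2 cells or 3.55 in sgHNRNPC cells could not be called.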
